A study of Mus musculus with 198 samples.

Results

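The 8 genes described here belong to insulin, insulin-like growth factor (IGF) and mTOR growth signalling: Igf1, Igf1r, Insr, Irs1, Irs2, Mtor, Tsc1 and Tsc2. They were chosen by name for their place in this growth pathway, and they are 8 of the 34193 gene rows of the table of gene methylation. The mice were C57BL/6J animals of 8 weeks that carried either 2 wild-type copies of Dnmt3a (WT) or a heterozygous knockout (hKO), in which 1 copy of this DNA methyltransferase gene is lost. Cortex was taken from littermates, genomic DNA was bisulfite converted and sequenced, and each of the 8 libraries came from 1 animal, with 4 animals per genotype (2 males and 2 females each). The labels do not say what part of Dnmt3a was removed. The values are the methylated share of CA cytosines (mCA) and of CG cytosines (mCG) over each gene, in percent.

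Insulin and IGF1 bind related receptor tyrosine kinases, which phosphorylate the adaptors IRS1 and IRS2. These recruit PI3 kinase and so activate AKT, which inhibits the TSC1-TSC2 complex, and that in turn releases the kinase mTOR to drive protein synthesis and cell growth. In the brain the pathway sets neuronal size, dendrite growth and synaptic plasticity, and loss of TSC1 or TSC2 in people causes tuberous sclerosis. DNMT3A writes mCA in neurons during early postnatal life, and loss of 1 working DNMT3A copy in people causes Tatton-Brown-Rahman syndrome, an overgrowth disorder with intellectual disability. Cortex is a mixture of cells, so a lower level in each cell and a smaller share of highly methylated cells cannot be told apart in these values.

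The start regions of the genes differ widely in how many CG sites they hold. Sequences are shown for 3 of them, those whose upstream bases overlap no annotated gene, as those of Igf1, Irs2, Tsc1 and Tsc2 do. RefSeq promoter entries (GRCm38.p6) matched 7 of the 8 genes by symbol, all but Insr. The 250 bases before the start site held 42 CG dinucleotides at Igf1r, 34 at Irs2, 28 at Irs1, 24 at Tsc2, 19 at Mtor, 16 at Tsc1 and 5 at Igf1, against a median of 6 over 32851 such windows. A count at least as high was found in 0.865% of all windows for Igf1r, 3.53% for Irs2, 7.61% for Irs1, 12.0% for Tsc2, 19.7% for Mtor, 25.4% for Tsc1 and 55.6% for Igf1. CA, searched on both strands as CA and TG, was fewest at Igf1r, which had the most CG, and most at Igf1, which had the fewest, with 17 at Igf1r, 23 at Irs2 and Tsc1, 25 at Irs1, 26 at Mtor, 28 at Tsc2 and 37 at Igf1, against a median of 34. The windows of Igf1r (chr7:67952007-67952256, plus strand), Irs1 (chr1:82291440-82291689, minus strand) and Mtor (chr4:148448332-148448581, plus strand) overlap no annotated gene, and they are printed 5′ to 3′ with each CG in capitals.
Igf1r: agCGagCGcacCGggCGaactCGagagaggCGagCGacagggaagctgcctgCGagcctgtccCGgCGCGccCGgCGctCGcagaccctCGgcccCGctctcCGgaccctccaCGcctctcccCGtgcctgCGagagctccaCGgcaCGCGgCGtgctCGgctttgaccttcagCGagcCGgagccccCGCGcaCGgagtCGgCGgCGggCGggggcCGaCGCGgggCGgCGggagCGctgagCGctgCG
Irs1: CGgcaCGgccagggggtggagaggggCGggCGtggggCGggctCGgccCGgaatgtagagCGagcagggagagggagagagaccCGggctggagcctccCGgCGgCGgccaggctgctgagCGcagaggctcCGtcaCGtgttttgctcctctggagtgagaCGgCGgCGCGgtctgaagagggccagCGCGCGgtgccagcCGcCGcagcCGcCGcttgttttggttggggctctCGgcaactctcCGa
Mtor: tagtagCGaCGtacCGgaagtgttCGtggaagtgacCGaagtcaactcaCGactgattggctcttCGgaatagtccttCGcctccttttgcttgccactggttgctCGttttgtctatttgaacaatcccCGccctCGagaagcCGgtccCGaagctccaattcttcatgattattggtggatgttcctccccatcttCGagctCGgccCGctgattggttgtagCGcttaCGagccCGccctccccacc
The Igf1r line thus holds 42 capital pairs and the Mtor line 19, in windows of equal length. The methylation table gives no extents for its gene rows, so whether these bases are part of the measured regions is not known.

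mCA was lower in hKO cortex at 7 of the 8 genes by limma, with a Benjamini-Hochberg adjusted p under 0.05 over all 21302 genes measured in every library, and at the same 7 every hKO animal lay below every WT animal. Tsc2 was the gene that did not pass, although its hKO mean was also lower, as were those of all 8 genes and of 97.1% of the genome. Among all genes 72.1% were called lower, 0.0329% were called higher, and 64.6% had no overlap between the genotypes. A group of 8 genes is too small to tell 7 called from these shares. The hKO means were between 55.4% and 64.9% of the WT means, with a median of 56.7% against 56.6% over all genes. The median of the per-gene differences over all genes was -0.907 points. After the library median was subtracted from percent mCA, Igf1 and Igf1r were still called lower, Insr, Tsc1, Tsc2 and Mtor were called higher (their loss in points was smaller than the median gene's), and Irs1 and Irs2 did not pass, beside 24.8% lower and 30.6% higher genes in the genome. In the plot of mCA by animal, the largest gaps in percentage points are at the genes with the highest WT levels.

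**Figure D1:**
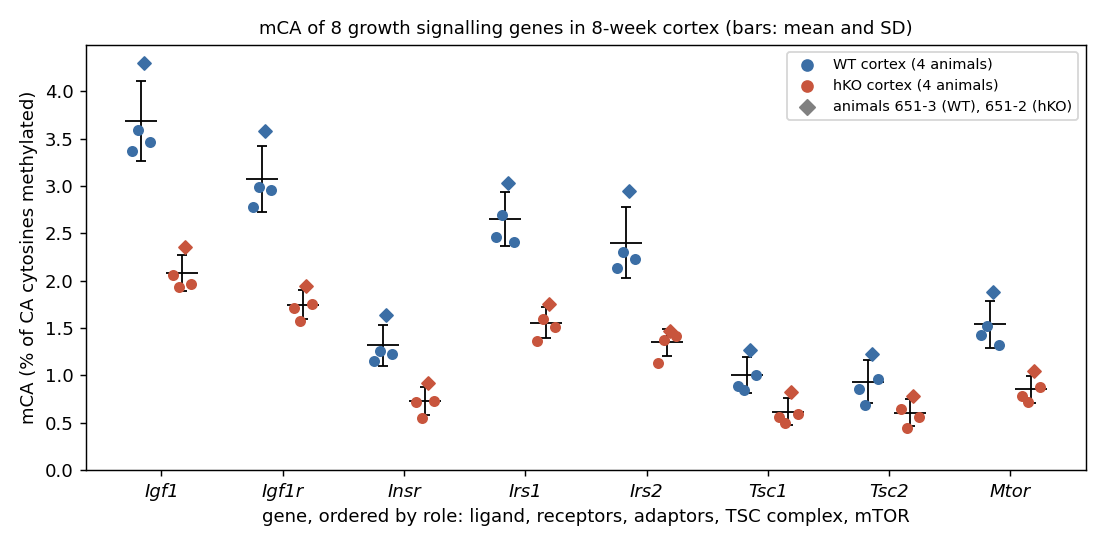
mCA of the 8 genes in percent of CA cytosines (vertical axis) in 4 WT and 4 hKO animals, with black bars for the mean and SD and diamonds for animals 651-3 (WT) and 651-2 (hKO). The hKO points lie below the WT points at every gene except Tsc2, where the ranges overlap, and the diamonds are the highest point of their genotype at all 8 genes.

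Animals 651-3 and 651-2 stood above the rest of their genotypes across the genome as well. The median gene was at 2.43% mCA in WT 651-3 and between 1.91% and 1.93% in the other WT animals. In hKO it was at 1.32% in 651-2 and between 1.01% and 1.11% in the others. Leaving out either of them kept the calls of the other genes, and Tsc2 passed without 651-2. The 8 libraries were sequenced to about the same depth according to the labels, but the table holds no coverage, so the depth behind each gene's value is unknown.

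Igf1 encodes the secreted growth factor of the pathway, made in the brain by neurons and glia. Its mCA was 3.37%, 3.59%, 4.30% and 3.46% in WT animals 046-1, 047-2, 651-3 and 695, and 2.06%, 1.94%, 2.36% and 1.97% in hKO animals 046-2, 047-1, 651-2 and 694. The lowest WT animal was 1.01 points above the highest hKO animal, the widest gap of the 8 genes. The mean fell from 3.68% ± 0.420 (SD, n = 4) to 2.08% ± 0.193 (SD, n = 4), a difference of -1.60 points (SE 0.251) with a limma adjusted p of 0.000738. Igf1 had the highest mCA of the 8 genes in each genotype, at the 86.8th percentile of all genes in WT.

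The receptors differed from each other in level. With no background subtracted they kept a like share of WT mCA in hKO, 56.8% at Igf1r and 55.4% at Insr. With methylation at CC subtracted as a background, as described below, the shares were apart, at 51.5% and 40.02%. With the level of lambda phage DNA subtracted they were 48.6% and 28.7%. These shares are ratios of group means with no error, and a difference between the receptors in share kept was not tested. Neither receptor departed from the genome's median in the log2 test below under any setting run. Igf1r encodes the receptor for IGF1 and IGF2, and its mCA was 2.78%, 2.99%, 3.58% and 2.96% in the WT animals and 1.71%, 1.58%, 1.95% and 1.76% in the hKO animals, in the same order of animals. The groups did not overlap, and the mean fell from 3.07% ± 0.347 to 1.75% ± 0.153 (SD, n = 4 each), by -1.33 points (SE 0.214, limma adjusted p = 0.000778). Insr encodes the insulin receptor, and its mCA was 1.15%, 1.26%, 1.63% and 1.22% in WT against 0.720%, 0.551%, 0.922% and 0.728% in hKO. These groups were also apart, with means of 1.32% ± 0.216 and 0.730% ± 0.152 (SD, n = 4 each), a difference of -0.587 points (SE 0.149) and a limma adjusted p of 0.00617. In all 8 animals Igf1r had more mCA than Insr, by a ratio of means of 2.33 in WT and 2.39 in hKO. The same 8 animals had less mCG at Igf1r than at Insr, with a mean difference (Igf1r minus Insr) of -6.37 points.

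Irs1 and Irs2 encode the adaptors that carry the signal from either receptor to PI3 kinase. At Irs1 the WT animals had 2.46%, 2.69%, 3.03% and 2.41% mCA and the hKO animals 1.36%, 1.60%, 1.76% and 1.51%. The corresponding values at Irs2 were 2.13%, 2.30%, 2.95% and 2.23% in WT and 1.13%, 1.38%, 1.46% and 1.41% in hKO. Neither gene had overlapping groups. The Irs1 mean was 2.65% ± 0.285 in WT and 1.56% ± 0.164 in hKO (SD, n = 4 each), a difference of -1.09 points (SE 0.192, limma adjusted p = 0.00103). For Irs2 the means were 2.40% ± 0.371 and 1.35% ± 0.148 (SD, n = 4 each), a difference of -1.05 points (SE 0.207, limma adjusted p = 0.00168). Irs1 was above Irs2 in mCA in 8 of 8 animals, by 0.228 points on average.

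Tsc1 (hamartin) and Tsc2 (tuberin, the GTPase activator for RHEB) encode the complex that restrains mTORC1, and they had the lowest mCA of the 8 genes. Tsc1 was at 0.890%, 0.842%, 1.27% and 1.01% in WT and 0.563%, 0.494%, 0.824% and 0.590% in hKO. Its groups were apart by 0.0176 points only, between WT 047-2 and hKO 651-2. The mean fell from 1.00% ± 0.190 to 0.618% ± 0.143 (SD, n = 4 each), by -0.384 points (SE 0.136) with a limma adjusted p of 0.0288. This call rests on single animals: it was lost without WT 695 (adjusted p = 0.0570), hKO 046-2 (0.0745), hKO 047-1 (0.0814) or hKO 694 (0.0704).

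At Tsc2 the WT animals had 0.860%, 0.691%, 1.23% and 0.961% mCA and the hKO animals 0.646%, 0.442%, 0.779% and 0.560%. WT 047-2 was below hKO 651-2, so the ranges overlapped. The means were 0.935% ± 0.224 and 0.606% ± 0.142 (SD, n = 4 each), a difference of -0.328 points (SE 0.143) with a limma adjusted p of 0.0623. It passed without WT 047-2 (adjusted p = 0.0309) and without hKO 651-2 (0.0496).

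Mtor encodes the kinase at the core of the mTORC1 and mTORC2 complexes. Its mCA was 1.43%, 1.53%, 1.89% and 1.32% in WT and 0.784%, 0.718%, 1.05% and 0.873% in hKO. The groups did not overlap, and the mean fell from 1.54% ± 0.246 to 0.856% ± 0.143 (SD, n = 4 each), by -0.683 points (SE 0.159, limma adjusted p = 0.00397). Mtor lay between Irs2 and Insr in level, at the 36.5th percentile of all WT genes.

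From high to low the order was Igf1, Igf1r, Irs1, Irs2, Mtor, Insr, Tsc1 and Tsc2 in both genotypes. The WT ranges of neighbours in this order overlapped except for Irs2 and Mtor. Within animals each gene was above the next in 4 of 4 WT animals, and in 4 of 4 hKO animals except for Igf1r over Irs1 and Tsc1 over Tsc2 (3 of 4 each). The ligand, the IGF1 receptor and the adaptors thus had more mCA than the insulin receptor, mTOR and its inhibitory complex.

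The share of WT mCA kept in hKO was 56.5% at Igf1, 56.8% at Igf1r, 55.4% at Insr, 58.8% at Irs1, 56.1% at Irs2, 61.7% at Tsc1, 64.9% at Tsc2 and 55.6% at Mtor. Whether any gene departed from the genome's median was tested on log2(percent mCA + 0.1) after the median of each library was subtracted. On this scale the log2 difference between genotypes was 0.25 at Tsc2 (SE 0.142, limma adjusted p = 0.710) and 0.17 at Tsc1 (SE 0.110, adjusted p = 0.736). It was between 0.00 and 0.07 at the other 6 genes, with adjusted p from 0.868 upward. None of the 8 passed, beside 1 lower gene (0.00469%) and 0 higher genes of 21302. At an unadjusted p under 0.05 there were 2.42% lower and 5.38% higher genes in the genome and none among the 8.

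The share kept at the genes with low mCA depended on whether a background was subtracted. Methylation at CC, a context with little true methylation in brain, averaged 0.338% in the low-coverage libraries of 6 of the 8 animals (0.272% to 0.381%). Animals 651-3 and 651-2, the highest of their genotypes in mCA, were not among the 6, so their background is unknown. With this value taken from both means, the share kept was 42.1% at Tsc1, 45.0% at Tsc2, 43.1% at Mtor and 40.02% at Insr. It was 48.9% at Irs2, 51.5% at Igf1r, 52.1% at Igf1 and 52.8% at Irs1, against a median of 48.0% over genes with at least 1% mCA in WT and 47.22% over all genes above the background. The 4 genes with the lowest mCA ended below both medians. On the log2 scale with the library median subtracted, however, Tsc2 was still at 0.0624 after CC was subtracted and Tsc1 at -0.0329. Lambda phage DNA, in general an unmethylated spike-in used as a control for conversion, read 0.493% in the same libraries (0.402% to 0.544%), more than CC. With the lambda level subtracted, an alternative chosen after seeing the data, the share kept was 24.5% at Tsc1, 25.7% at Tsc2, 28.7% at Insr, 34.7% at Mtor, 44.8% at Irs2, 48.6% at Igf1r, 49.4% at Irs1 and 49.8% at Igf1, against 43.7% and 41.9% for the medians. In hKO 047-1, Tsc2 at 0.442% was below this lambda level and Tsc1 at 0.494% was about equal to it. The shares at the genes with the lowest mCA thus rest on small remainders of group means, and they carry no error. How much of the values is unconverted cytosine was not tested.

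**Figure D2:**
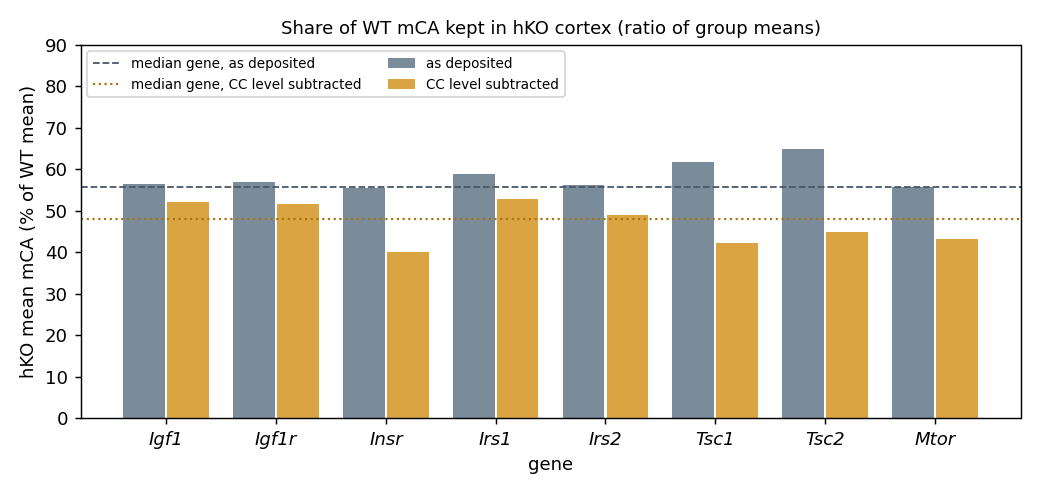
Mean mCA in hKO as a percent of the WT mean (vertical axis) for each gene, as deposited (grey bars) and after the CC level was subtracted (yellow bars), with lines at the median over genes with at least 1% mCA in WT. Tsc1 and Tsc2 have the tallest grey bars, at 61.7% and 64.9%, and their yellow bars of 42.1% and 45.0% are below the dotted line at 48.0%.

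In mCG the differences were larger in points than in mCA and smaller as a share of the level. No gene of 21060 passed limma with adjustment in either direction (0%), and at an unadjusted p under 0.05 there were 2124 lower genes (10.1%) and 71 higher genes (0.337%). The lower count depended on single animals, from 983 without hKO 046-2 and 1019 without WT 651-3 to 3484 without WT 046-1 and 3483 without hKO 651-2. It was 5876 with the animal code as a replicate block, in a fit without animals 694 and 695. All 8 genes had a lower mean in hKO, as did 84% of all genes. Their median difference was -2.29 points against -2.18 over all genes, and the latter was -1.28 without WT 651-3.

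Irs2 had the lowest mCG of the 8 genes and the largest difference. WT animals 046-1, 047-2, 651-3 and 695 were at 57.1%, 60.7%, 64.0% and 60.3%, and hKO animals 046-2, 047-1, 651-2 and 694 were at 50.0%, 51.8%, 56.7% and 52.2%. The groups did not overlap, by 0.388 points, and Irs2 was the only one of the 8 of which this was true (4.94% of all genes). The mean was 60.5% ± 2.85 in WT and 52.7% ± 2.82 in hKO (SD, n = 4 each), a difference of -7.83 points (SE 2.65) with an unadjusted limma p of 0.0139 and an adjusted p of 0.476. With the animal code as a replicate block, in a fit without animals 694 and 695, the difference was -7.75 points (SE 1.60, limma adjusted p = 0.146). Of all genes, 3.89% had a difference as low or lower.

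The other 7 genes had overlapping mCG ranges. Irs1 was at 70.9% ± 1.73 in WT and 66.7% ± 2.71 in hKO, a difference of -4.21 points (SE 2.13, limma adjusted p = 0.479). Igf1r was at 72.6% ± 2.58 and 68.8% ± 2.23, a difference of -3.84 points (SE 2.10, limma adjusted p = 0.483). These receptor and adaptor genes, with Irs2, were the least CG methylated of the 8 and had the largest differences. Mtor, Igf1, Insr, Tsc1 and Tsc2 were between 77.9% and 82.5% in WT and differed by -2.59, -1.997, -1.53, -1.33 and -0.415 points, with limma adjusted p from 0.529 to 0.919. Without WT 651-3 these 5 differences were -1.51, -1.06, -0.586, -0.544 and 0.801 points, so the sign at Tsc2 turned. Levels of mCG ran in nearly the opposite order to mCA at the low end, since Tsc2 and Tsc1 had the most mCG and the least mCA.

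**Figure D3:**
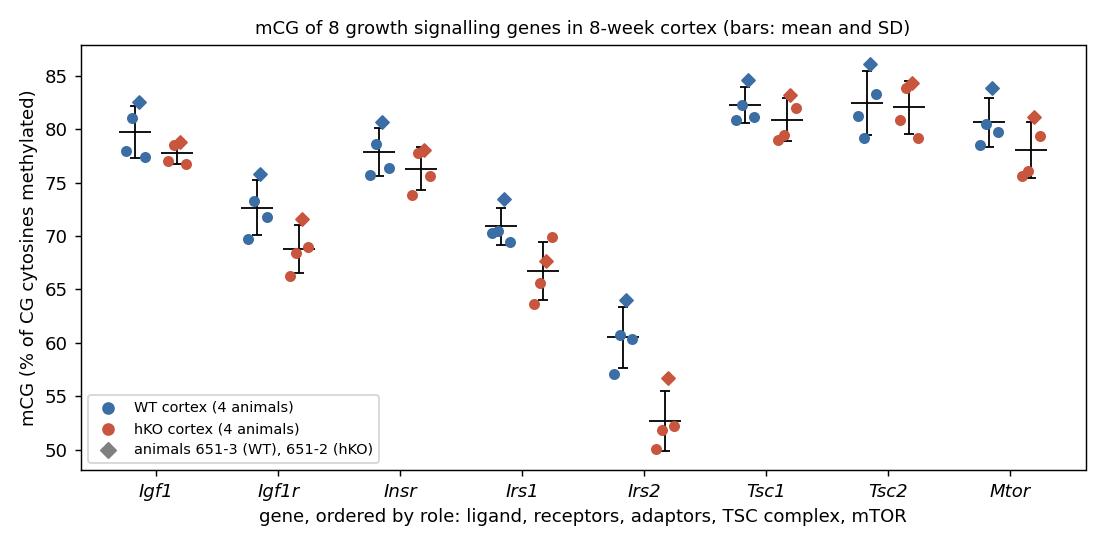
mCG of the 8 genes in percent of CG cytosines (vertical axis, not starting at 0) in 4 WT and 4 hKO animals, with black bars for the mean and SD and diamonds for animals 651-3 (WT) and 651-2 (hKO). Irs2 is lowest and is the only gene whose WT and hKO points do not overlap.

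Site density puts the 2 contexts on a common scale. The column names of the authors' means say kb, but their values were read as per base, since only that reading gives more than 1 CA site per 1000 bases. They gave between 148 and 169 CA sites per 1000 bases at the 8 genes (median of all genes 153), but from 13.8 CG sites at Igf1 to 28.4 at Tsc2 (median 20.4). By these columns Igf1 had 5.46 methylated CA per 1000 bases in WT and 3.08 in hKO, which is 49.7 and 28.8 methylated CA per 100 methylated CG. Tsc2 was at the other end, with 1.58 and 1.03 per 1000 bases, or 6.74 and 4.40 per 100 methylated CG. In absolute number Irs2 had 1.92 fewer methylated CG and 1.65 fewer methylated CA per 1000 bases in hKO, whereas each of the other 7 genes had a larger deficit in CA than in CG. At Igf1, for example, the deficits were 2.38 methylated CA and 0.275 methylated CG per 1000 bases. These are the authors' means over animals, with no error.

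Males and females gave the same direction in mCA at all 8 genes. The difference at Igf1 was -1.41 points in males and -1.80 in females, and at Tsc2 it was -0.308 and -0.349, with the other genes likewise larger in females. The product of genotype and sex did not pass for any of the 8 in mCA (limma adjusted p = 1) or mCG, beside 0.00939% higher and 0% lower genes in mCA and 0% in mCG. At Igf1 the difference between the sexes was 0.390 points with an SE of 0.453. In the 2 against 2 females alone Igf1, Igf1r and Irs1 passed and the other 5 did not, and in the males alone all 8 did. Sex coincides with a second sequencing instrument in the protocols of the female libraries, so the 2 cannot be told apart.

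The rest of the pathway was described from a list of further genes chosen by role, of which 117 had mCA in all 8 animals. Of these 92 (78.6%) fell by the limma test, 0 rose and 25 did not pass, against 72.1% of all genes called lower. The median share kept was 56.1%, and 85 (72.6%) had no overlap between the genotypes, against 64.6% of all genes. None of the 117 departed from the library median after adjustment, and 2 were lower and 4 higher at an unadjusted p under 0.05 (5.13% together, against 2.42% lower and 5.38% higher in the genome). In mCG 0 of 116 passed the adjusted test. All 12 with an unadjusted p under 0.05 were lower (10.3%, against 10.1% of all genes), and 104 (89.7%) had a lower mean in hKO, against 84% of all genes.

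**Figure D4:**
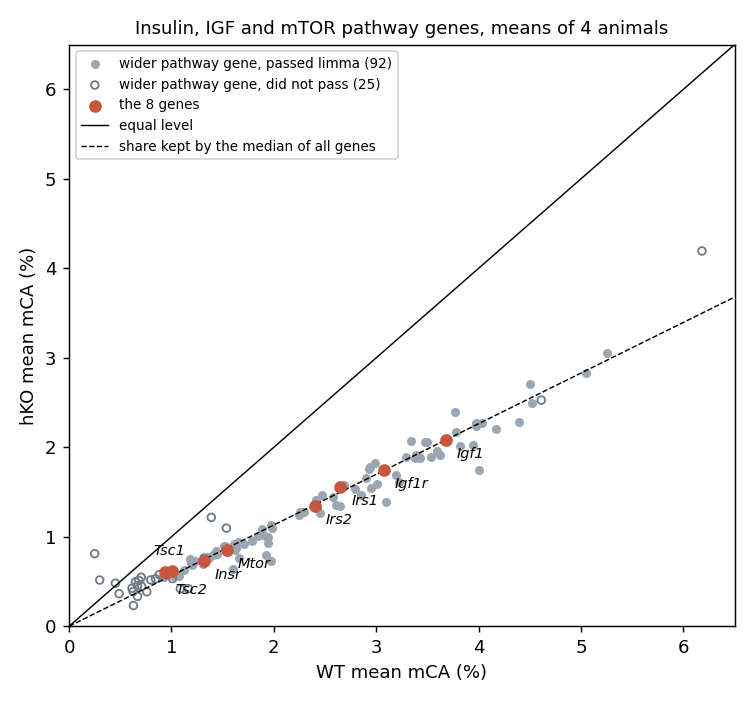
Mean mCA in hKO (vertical axis, percent) against WT (horizontal axis, percent) for the 117 further pathway genes and the 8 genes (red), each a mean of 4 animals; filled grey points passed limma. The red points lie near the dashed line, which marks the 56.6% kept by the median of all genes, and open points are mostly at low WT levels.

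By role, 10 of 13 ligands and binding proteins fell, 2 of 2 other receptors, 8 of 10 receptor adaptors and phosphatases, 13 of 14 PI3 kinase and lipid phosphatase genes, and 12 of 14 genes of the AKT arm. Further down, 6 of 8 mTOR complex subunits fell, 21 of 30 regulators of mTORC1, 8 of 11 mTORC1 targets, and 12 of 15 genes of the RAS-ERK arm. Beside the 72.1% of all genes called lower, the roles with the lowest shares were the mTORC1 regulators (70%) and the mTORC1 targets (72.7%), both near the genome's share. In each role the genes at the ends of the range of shares kept, among those with at least 1% mCA in WT, are named here as a description.

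Among ligands and binding proteins Igf2, an imprinted fetal growth factor, kept 71.4% (1.54% in WT and 1.10% in hKO, limma adjusted p = 0.0670) and Igfbp5, an IGF binding protein, kept 50.2% (3.22% and 1.62%, adjusted p = 0.00143). The other receptors were Insrr, the insulin receptor-related receptor, which fell from 5.05% to 2.83%, and Igf2r, the imprinted clearance receptor for IGF2, which fell from 2.95% to 1.55%. They kept 56.03% and 52.4%. Of the adaptors, Irs4 kept 61.2% and Shc1, which links receptors to RAS, kept 36.9%, falling from 1.97% ± 0.503 to 0.726% ± 0.180 (SD, n = 4 each, limma adjusted p = 0.00164). Shc1 had the lowest share among these named genes that passed.

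Pik3r1, the main regulatory subunit of PI3 kinase, kept 59.4%, and Inppl1, the lipid phosphatase SHIP2, kept 43.4%, falling from 4.01% ± 0.311 to 1.74% ± 0.113 (SD, n = 4 each, limma adjusted p = 0.000692). In the AKT arm the forkhead factor gene Foxo4 was at 1.39% and 1.22% and did not pass (87.6% kept, adjusted p = 0.604), and Foxo6 fell from 3.94% to 2.02% (51.3% kept). Inppl1 therefore had a higher WT level than Igf1 and ended below it in hKO, while Foxo4 varied between animals by more than the genotypes differed.

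Of the mTOR complex subunits Mapkap1, of mTORC2, kept 56.6% and Prr5, also of mTORC2, kept 51.9%. Rheb, the GTPase on which the TSC complex acts, fell from 1.18% ± 0.253 to 0.752% ± 0.158 (SD, n = 4 each, 63.8% kept, limma adjusted p = 0.0333). Its level and share are close to those of Tsc1. Nprl2, of the GATOR1 complex, was at 1.16% ± 0.909 and 0.420% ± 0.605 (SD, n = 4 each) and did not pass (adjusted p = 0.155). Among mTORC1 targets Lpin1, a phosphatidate phosphatase, kept 60.1% and Eif4ebp1, the translation repressor 4E-BP1, kept 44.9%, and in the RAS-ERK arm Rps6ka1 kept 59.3% and Mapk3, encoding ERK1, kept 39.8%; all 4 passed.

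For each of the 8 genes the pathway gene with the most similar mCA was found as the smallest mean absolute difference over the 8 animals. Igf1 was nearest to Pik3cg (0.133 points; Pik3cg had 3.78% in WT and 2.17% in hKO), Igf1r to Foxo3 (0.0823), Irs1 to Rptor (0.102) and Irs2 to Sesn1 (0.106). Mtor was nearest to Depdc5 (0.0725 points), Insr to Prkag1 (0.0551), and Tsc1 and Tsc2 both to Rps6kb1 (0.0292 and 0.0632), which encodes the S6 kinase. The likeness is one of level and includes the animals' overall mCA.

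Dnmt3a itself had 1.25% mCA in WT and 0.761% in hKO, a difference of -0.486 points (SE 0.140, limma adjusted p = 0.0115), and -5.57 points in mCG (adjusted p = 0.476). Methylation of the gene does not check its deletion, so the genotype rests on the labels. Marker genes of cell types were read as methylation, not expression: in WT the astrocyte markers were between 3.62% and 4.52% mCA, endothelial markers between 3.17% and 4.44%, microglial markers between 1.60% and 3.37%, oligodendrocyte markers between 1.73% and 3.01%, inhibitory neuron markers between 0.328% and 2.56%, and excitatory neuron markers between 0.885% and 5.33%. The inhibitory neuron marker at 0.328%, Slc32a1, was below the mean CC level of 0.338%. Of 21 brain markers measured, 20 had a lower mean in hKO, beside 97.1% of all genes. Neurod6, named after its values were seen, had a higher mean (5.33% in WT and 6.18% in hKO, with 41.3% and 46.13% mCG). The part of cell makeup in the differences was not tested.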

How the data were processed

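Bisulfite sequencing reads of 8 deep cortex libraries (whole genome, at single-digit coverage per the labels) were processed by the authors with BS-Seeker2 and bedtools on mm9, per the submitters' processing notes, and deposited as the fraction of methylated CA or CG cytosines per gene, 1 column per animal. The authors' deposited mean columns of methylated sites (named per kb, read here as per base from their size and multiplied by 1000), divided by the mean fraction, were used for site density. The fraction values for CC and lambda DNA came from the deposited low-coverage libraries. Libraries of 1 animal with equal CA and CC values were counted once. Lambda values of 0 were taken as missing, which can only raise the lambda mean. Neither coverage nor counts of reads are in the tables used, so no count model or interval was possible. Columns of other samples among the gene methylation values numbered 0. The low-coverage data also hold many other samples, and only 8-week cortex libraries of 6 of the same 8 animals were used from them.

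Fractions were multiplied by 100. Genes measured in all 8 libraries (21302 in mCA, 21060 in mCG) were tested with limma 3.58.1 (R 4.3.3; moderated variance with a trend on the mean, two-sided, Benjamini-Hochberg over all genes, threshold 0.05), hKO minus WT, with no covariate. Relative mCA used log2(percent + 0.1) minus the library median. The scripts were run on simulated data with independent noise for each gene and animal. The simulation held no shift shared by all genes of a library, so it cannot show how the tests behave under such shifts. Tables were handled with Python 3.11.15, pandas 2.3.3 and numpy 2.4.6.

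Beside the 8 genes, the named genes are Dnmt3a, the pathway genes with the largest and smallest share kept in each role among those with at least 1% mCA in WT, any pathway gene that passed in mCG or relative mCA or was called higher, and the nearest pathway gene of each of the 8. The pathway list held 127 symbols; 120 of its genes matched by symbol and 4 by synonym. The genes and lists were chosen with earlier results of these data known. The alternatives were leaving out each animal, each sex alone, a replicate block, no trend, robust variance, logit, other pseudocounts, a filter on low mCA, and other centring; subtracting the lambda level was added after seeing the data. Whether the animals of a genotype came from separate litters is not given in the sources used here.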

Additional observations from a re-analysis of the deposited data

How the results depend on the processing

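The direction of mCA kept at Igf1, Igf1r, Irs1 and Irs2 under every alternative run, and Igf1 and Igf1r also passed under each. With 2 females per genotype alone, 3 of the 8 genes, 44 pathway genes and 7841 genes of the genome were lower in mCA and 27 higher. In males alone 54 genes were higher. Subtracting the library median from percent mCA, which by construction compares each gene with the median gene in points, left 2 of the 8 lower and 4 higher (34 pathway genes lower, 5283 genes lower, 6523 higher); Insr was then at 0.324, Tsc1 at 0.527, Tsc2 at 0.583 and Mtor at 0.228 points. Higher calls in mCA over all genes, 7 in the report, were 15 with a replicate block and 4 without the trend or with robust variance. In mCG, females alone gave 1 higher gene and 1.42 points at Tsc2, and the library median subtracted gave 0.286 at Igf1, 0.748 at Insr, 0.957 at Tsc1 and 1.87 at Tsc2.

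In relative mCA (log2) the sign at genes near 0 turned with several settings and none passed: females alone gave -0.00599 at Igf1, -0.0202 at Igf1r, -0.0696 at Insr and -0.0486 at Mtor, a pseudocount of 0.02 gave -0.00513 at Insr, and one of 0.5 gave -0.0570 at Igf1, -0.0293 at Igf1r and -0.00942 at Irs2. CC subtracted gave -0.155 at Insr, -0.0329 at Tsc1 and -0.0713 at Mtor (Tsc2 0.0624), the lambda level subtracted gave -0.393 at Insr, -0.429 at Tsc1, -0.175 at Tsc2 and -0.174 at Mtor, and centring on the mean gave -0.0722 at Igf1, -0.0579 at Igf1r, -0.0581 at Insr, -0.00886 at Irs1, -0.0642 at Irs2 and -0.0579 at Mtor. Over all genes 0 were lower in males or females alone and 1 was higher in females. The causes were not tested.

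Leaving out 1 animal at a time gave 6 to 8 of the 8 genes lower, 82 to 96 pathway genes, 13543 to 16024 genes lower and 3 to 21 higher in mCA. In mCG it gave 0 to 1 gene lower, 0 to 1 higher, and -1.51 to 0.801 points at Tsc2. In relative mCA it gave 1 to 3 genes lower, 0 to 1 higher, -0.0138 to 0.0230 at Igf1, -0.000291 to 0.0382 at Igf1r, -0.0178 to 0.0798 at Insr, 0.00405 to 0.112 at Irs1, -0.0496 to 0.0736 at Irs2, 0.116 to 0.209 at Tsc1, 0.157 to 0.320 at Tsc2 and -0.0219 to 0.0467 at Mtor. Lower genes in mCG at an unadjusted p under 0.05, 2124 in the report, were 983 to 3484, and 4528 with sex as a covariate, 5876 with the replicate block, 1378 in males, 1363 in females and 1256 with the library median subtracted; higher genes, 71 in the report, were 50 to 189, and 203 in males, 159 in females, 148 with the block and 1276 with the median subtracted.

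WT and hKO animals share the codes 046, 047 and 651. Cortex was taken from littermates, but the labels do not say whether a code marks a litter. The main tests did not take the codes as pairs. Over genes, deviations of animals of 1 code correlated at 0.0370 to 0.114 in mCA and 0.0845 to 0.120 in mCG over 3 pairs. Of the libraries, 5 of 6 in mCA and 6 of 6 in mCG correlated best with their own code, a hint of pairing that the labels do not state. These correlations leave out each library's overall level, so they cannot decide whether the codes are pairs. The median gene's mCG was 77.3%, 79.8% and 82.2% in WT 046-1, 047-2 and 651-3. In hKO 046-2, 047-1 and 651-2 it was 75.1%, 77.1% and 79.5%. The fit with the code as a replicate block, without animals 694 and 695, called the same number of the 8 genes lower, 7 (Tsc2 adjusted p = 0.0511 in limma), and 95 pathway genes. In mCG it gave -7.75 points at Irs2 (SE 1.60), -5.77 at Irs1 (SE 1.18), -4.17 at Igf1r (SE 1.06) and -3.32 at Mtor (SE 0.788). The limma adjusted p was 0.146 at each of these. The other mCG differences were -2.43 at Igf1, -2.03 at Tsc1, -1.79 at Insr and 0.837 at Tsc2, with adjusted p from 0.184 to 0.738. In relative mCA the block fit gave -0.0260 at Irs2, -0.0424 at Mtor and 0 lower genes.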
